A study of Arabidopsis thaliana with 8 samples.

Results

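Glycosylphosphatidylinositol (GPI)-anchored lipid transfer protein genes, called the LTPG type, were followed along the Arabidopsis thaliana root. A list of 10 loci of this type was matched through the array's probe annotation, and 5 had a probe set assigned to a single gene, of 13286 loci with one in all: AT2G44300, AT3G22620, AT2G48130, AT5G13900 and AT1G05450. The other 5 (AT2G44290, AT3G22600, AT2G48140, AT3G43720 and AT5G64080) were matched to no single-gene probe set and are not analysed here. Below, having or lacking a probe set refers to such a match in the annotation used, and not to the array itself. The loci were chosen by protein family with zone differences in these signals already known, and the rule has no threshold, so the members' levels and differences are a description. A call of a member states its side of a threshold over all probe sets and supports nothing.

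The roots were of ecotype Columbia and had been cut along their length into sections labelled zone 1, 2, 3 and 4, with 2 arrays per zone and 8 arrays in all. The seedlings of all 4 zones had grown on MS medium for 5 days and then spent 3 hours on sulfur-deficient medium, so zone is the single factor and the response to sulfur is not measured. The labels do not place either end zone at the root tip, and do not state whether the paired arrays of a zone came from different plants. Each sample is a section with all its tissues, so fewer cells of a type and less RNA per cell cannot be told apart.

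Lipid transfer proteins are small secreted proteins with a hydrophobic cavity, stabilised by disulfide bridges, that can bind lipids. Those of the LTPG type are in addition tethered to the outer face of the plasma membrane by a GPI anchor, a glycolipid. They are known for a part in the deposition of cuticular wax and suberin, the lipid-based barriers of plant surfaces and, in roots, of endodermis and periderm. Among the listed loci without a value, LTPG2 (AT3G43720) is known for its part in surface wax, and XYP1 (AT5G64080) is a xylogen, a protein of xylem differentiation. The gene table gives the 5 measured loci no symbol, so they are described as family members without individual roles.

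Some listed genes are neighbours. In the order of protein-coding genes on the assembly TAIR10.1, AT2G44300 is next to AT2G44290, AT3G22620 next to AT3G22600, and AT2G48130 next to AT2G48140 (EDA4). In each of these 3 pairs 1 partner was measured. Hybridisation of the unmeasured partner's transcripts to the measured partner's probes was not tested.

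All 5 measured genes had their lowest mean signal in zone 1, as did 39.1% of the 22746 probe sets. The highest mean lay in zone 4 for AT2G44300, AT3G22620 and AT5G13900 and in zone 3 for AT2G48130 and AT1G05450. Signals are MAS5 signals on a linear scale, an estimate of transcript abundance from 1 probe set, and were compared between arrays and never between genes. AT2G44300 and AT3G22620 passed a filter that dropped the dimmest 40% of probe sets (mean signals of 42.5 or less), and the other 3 members did not. The 40th percentile of the signals on an array ranged from 27.1 to 47.6, and values below it are called dim here.

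AT2G44300 was dim in zone 1 and bright in zones 3 and 4. Its signals were 4.2 and 2.45 in zone 1, 45.5 and 130.0 in zone 2, 393 and 361 in zone 3, and 423 and 1421 in zone 4. No zone overlapped with another, although the lower zone 4 array lay close above zone 3. The zone means were 3.33 ± 1.24, 87.8 ± 59.7, 377 ± 22.8 and 922 ± 706 from zone 1 to zone 4 (SD, n = 2 each), so the zone 1 mean was 0.361% of the zone 4 mean. Zones 3 and 4 were the neighbours in this order that did not differ beyond their spread, since the SD of zone 4 exceeded the difference between the means.

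AT3G22620 had the same order of zone means with a wide spread in zones 3 and 4. Its signals were 19.8 and 17.1 in zone 1, 43.8 and 71.9 in zone 2, 939 and 115 in zone 3, and 497 and 1414 in zone 4. Zones 1 and 2 were narrower than zones 3 and 4 and did not overlap with each other, and the zone 3 arrays enclosed the lower zone 4 array. The zone means were 18.5 ± 1.85, 57.9 ± 19.9, 527 ± 583 and 956 ± 648 (SD, n = 2 each), and neither zones 2 and 3 nor zones 3 and 4 differed beyond their spread.

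The 3 dim members kept part of this order. AT5G13900 had signals of 3.11 and 2.62 in zone 1, 20.6 and 9.78 in zone 2, 69.8 and 11.9 in zone 3, and 44.5 and 72.6 in zone 4. Its zone 1 values lay below all others, and its zone 3 arrays were far apart with replicate 1 the higher, as in AT3G22620. AT2G48130 had signals of 10.3 and 3.16 in zone 1, 6.11 and 18.1 in zone 2, 57.9 and 56.5 in zone 3, and 17.4 and 66.3 in zone 4. Zones 1 and 2 overlapped, zone 3 lay above both, and the zone 4 arrays fell on either side of zone 3. AT1G05450 had signals of 16.4 and 2.54 in zone 1, 12.3 and 7.09 in zone 2, 19.2 and 34.8 in zone 3, and 9.04 and 19.6 in zone 4. None of these was above the 40th percentile of its array, against 3 of 8 for AT2G48130 and 2 of 8 for AT5G13900, and its means of 9.46 in zone 1 and 9.7 in zone 2 differed by less than their spread.

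**Figure D1:**
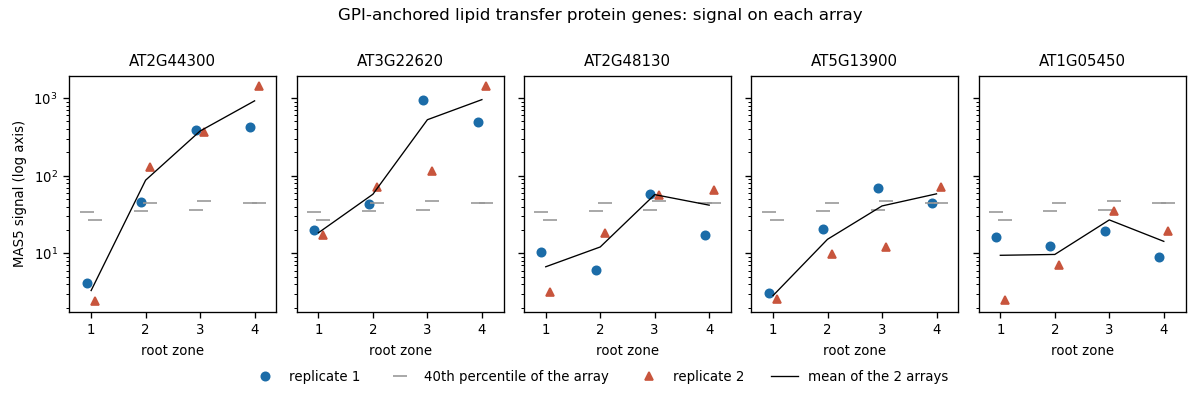
MAS5 signal (log axis) of the 5 measured GPI-anchored lipid transfer protein genes in root zones 1 to 4. Circles and triangles are replicates 1 and 2, the line joins the means of the 2 arrays, and grey dashes mark the 40th percentile of each array; AT2G44300 and AT3G22620 are above the dash on the arrays of zones 2, 3 and 4, and AT1G05450 on none.

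The members were also counted by whether the arrays of 2 zones overlapped. Both zone 3 arrays were above both zone 1 arrays for 5 of 5 members (33.7% of all probe sets), both zone 2 arrays were above zone 1 for 3 (29.6%), and both zone 4 arrays for 4 (29.7%). Both zone 2 arrays were exceeded by both zone 3 arrays for 4 members (22.1%) and by both zone 4 arrays for 3 (22.6%). Both zone 4 arrays were above both zone 3 arrays for AT2G44300 alone (23.6%), and for no member with each array centred on its median. With all arrays, the opposite order without overlap was found for 0 members in the 6 comparisons, where it was found for 22.0%, 25.5% and 23.1% of probe sets in zones 2, 3 and 4 against zone 1, 21.7% and 21.2% in zones 3 and 4 against zone 2, and 22.6% in zone 4 against zone 3. The count was 5 in zone 2 against zone 1 without zone 1 replicate 1, 5 in zone 4 against zone 2 without zone 4 replicate 1, and 3 or 4 in zone 4 against zone 3 if replicate 1 of zone 3 or of zone 4 was left out. In the opposite order, zone 4 lay below zone 3 for 2 members, AT2G48130 and AT1G05450, without zone 4 replicate 2, and for AT1G05450 alone without zone 3 replicate 1, with median centring or with quantile normalization. Zone 2 lay below zone 1 for 1, AT1G05450, without zone 1 replicate 2. A zone with 1 array left overlaps with another less readily, so the shares above do not apply to such counts. Shares with an array left out, or after centring or normalization, are not given here. As the members were chosen with such values known, nothing is read from these counts and shares.

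For both bright members the differences of zones 3 and 4 from zone 1 exceeded those between later zones, and the difference of zone 2 from zone 1 did so in AT2G44300 alone. In a linear model over 13647 probe sets (limma on log2 signals), AT2G44300 had log2 differences of 4.58 for zone 2 minus zone 1, 6.87 for zone 3 minus zone 1 and 7.92 for zone 4 minus zone 1, each with a moderated SE of 0.65. AT3G22620 had 1.61, 4.16 and 5.51 for the same differences, each with an SE of 0.82. These sizes depend on dim zone 1 signals. With dim signals replaced by their array's 40th percentile, the 3 differences were 1.35, 3.64 and 4.68 for AT2G44300 and 0.89, 3.44 and 4.79 for AT3G22620. The replacement took more from AT2G44300 than from AT3G22620, and left the zone 2 minus zone 1 difference of both below those of zones 3 and 4 from zone 2.

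Zones 2, 3 and 4 were then compared with each other. The log2 difference for zone 3 minus zone 2 was 2.29 for AT2G44300 and 2.55 for AT3G22620, and for zone 4 minus zone 2 it was 3.33 and 3.90. For zone 4 minus zone 3 it was 1.04 and 1.35, within 2 SEs of 0 for both genes. That of AT2G44300 was 0.17 without zone 4 replicate 2 and 1.92 with the other zone 4 array left out. Leaving out zone 3 replicate 2 turned that of AT3G22620 to -0.16, and leaving out the other zone 3 array made it 2.87, so its sign rests on 1 array.

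**Figure D2:**
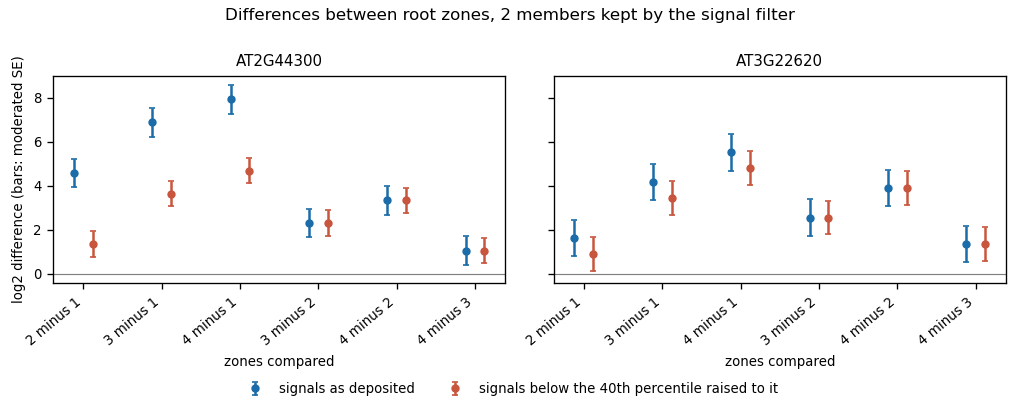
Log2 difference in signal for each pair of root zones in AT2G44300 and AT3G22620, as first zone minus second zone, with moderated standard errors as bars. Blue points use the signals as deposited and red points replace dim signals by the 40th percentile of their array, which lowers the 3 differences from zone 1 and leaves the other 3 in place.

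A probe set was called at an adjusted p under 0.05 (Benjamini-Hochberg over all probe sets) with at least a 2-fold difference. Of the 2 members in the model, AT2G44300 alone was called higher in zone 2 than in zone 1 (7.28% of probe sets were, and 4.78% lower). It was not called with dim signals replaced as above, nor without zone 2 replicate 2, when its log2 difference was 3.83. Leaving out that array also took the calls over all probe sets in this comparison, in both directions, to 70, against 1645 with it. Both were called higher in zone 3 than in zone 1 (18.0%, and 20.0% lower) and in zone 4 than in zone 1 (10.5%, and 3.88% lower). Limma called 0 in zone 3 against zone 2 (0.00% in either direction), 0 in zone 4 against zone 2 (0.00733% higher, 0.00% lower) and 0 in zone 4 against zone 3 (1.85% higher, 0.264% lower). At an unadjusted p under 0.05, the counts of members in these 3 comparisons were 2, 2 and 0, beside 18.1%, 11.4% and 18.7% of probe sets. For zone 3 minus zone 2, AT3G22620 had a log2 difference of 4.06 without zone 3 replicate 2. With the other zone 3 array left out, this difference was 1.03. The moderated F-test over the 4 zones called both members (26.9% of probe sets). Both passed the filter through zones 2, 3 and 4, their zone 1 signals being dim, and nothing is read from these calls.

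With no filter all 5 members entered the model. Called higher than in zone 1 were then 1 in zone 2 (3.86% of probe sets), 4 in zone 3 (11.4%) and 3 in zone 4 (6.24%), and 0 were called higher in zone 3 than in zone 2 (0.00%), in zone 4 than in zone 2 (0.0264%) or in zone 4 than in zone 3 (1.03%). The log2 difference for zone 3 minus zone 1 was 3.33 for AT2G48130, 3.34 for AT5G13900 and 2.00 for AT1G05450, which was the 1 not called. For zone 4 minus zone 1 it was 2.57, 4.31 and 1.04, of which that of AT5G13900 was called. The zone 1 signals of all 5 members were dim and log2 was taken with no offset, so these counts are a description.

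Within a zone, the members shared some differences between replicates and not others. In zone 4 replicate 2 gave the higher signal for 5 of 5 members (48.9% of all probe sets). Its ratio to replicate 1 was 3.36 for AT2G44300, 2.84 for AT3G22620, 3.82 for AT2G48130, 1.63 for AT5G13900 and 2.16 for AT1G05450. Over the probe sets that passed the filter, the median ratio of the higher to the lower zone 4 signal was 1.25. Of these probe sets, 50.4% were higher on replicate 2. In zone 3 the ratio of replicate 2 to replicate 1 was 0.122 for AT3G22620 and 0.171 for AT5G13900, but 0.918 for AT2G44300, 0.975 for AT2G48130 and 1.82 for AT1G05450. The zone 3 arrays were thus far apart for 2 members and close for AT2G44300 and AT2G48130. Over the probe sets that passed the filter, zone 3 replicate 2 had an r of 0.916 with zone 2 replicate 2 and of 0.899 with zone 3 replicate 1, across probe sets, which are not independent.

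Across the 8 arrays the log2 signals of the members correlated in their 10 pairs with r from 0.461 to 0.940. The highest was that of AT3G22620 with AT5G13900, which share the split in zone 3, and the lowest that of AT3G22620 with AT1G05450. AT2G44300 had an r of 0.904 with AT3G22620 and of 0.892 with AT5G13900. The 8 points come from 4 zones, and genes that differ between the same zones correlate over them.

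The most similar genes were sought among 4358 single-gene probe sets that passed the filter and whose zone means spanned at least 1 log2 unit. Nearest to AT2G44300 were AT1G13930, AT3G51330, AT2G32190, AT3G22570 and AT5G17820, with Pearson r from 0.988 to 0.992 over the 8 arrays. AT3G22570 had zone means of 14.5 ± 8.52, 189 ± 175, 699 ± 199 and 1128 ± 486, zone 1 to zone 4 (mean ± SD of 2 arrays). On chromosome 3 it is separated by 2 protein-coding genes from AT3G22600, a listed locus matched to no single-gene probe set, and by 3 from AT3G22620. An r of 0.9 or more with AT2G44300 was reached by 324 genes, and AT3G22620 ranked 307 among them.

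Nearest to AT3G22620 were AT4G33420, AT3G62860, AT3G22240, AT4G13580 and AT1G70790, with r from 0.975 to 0.990. All 5 were higher on zone 3 replicate 1 than on replicate 2, by differing amounts. AT4G33420 had signals of 332 and 33.1 on replicates 1 and 2 of zone 3 and 235 and 569 on those of zone 4, and AT4G13580 had 2454 and 79.9 in zone 3 and 510.0 and 4503 in zone 4. AT3G62860 had 489 and 239 and AT1G70790 had 266 and 180.1 in zone 3. The ratio between these arrays in AT1G70790 was no larger than in some genes nearest to AT2G44300, of which AT1G13930 had 1494 and 929 and AT3G51330 had 159 and 95.2 in zone 3. An r of 0.9 or more was reached by 141 genes, among which AT2G44300 ranked 131. The 5 nearest to AT2G44300 and the 5 nearest to AT3G22620 had no gene in common.

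**Figure D3:**
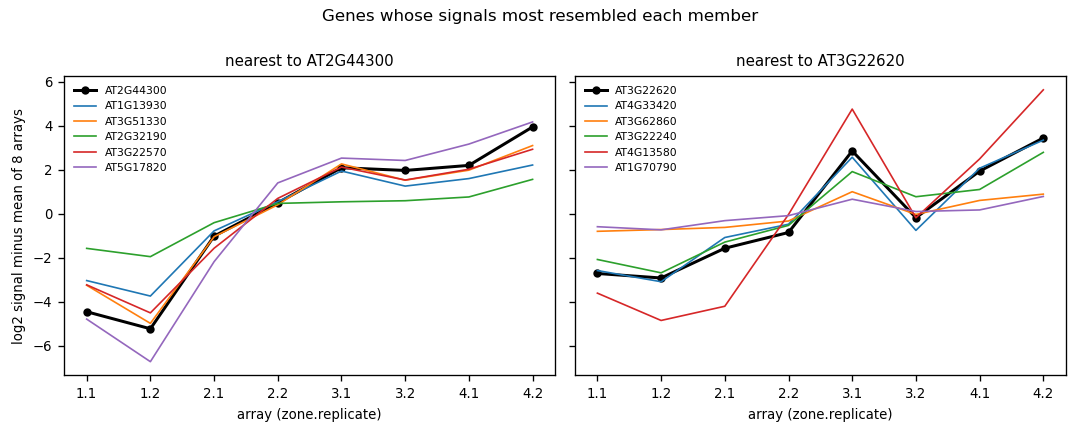
Log2 signal on each of the 8 arrays (zone and replicate), relative to the gene's own mean, for AT2G44300 and AT3G22620 (black) and for the 5 genes most correlated with each (coloured). The 5 genes beside AT3G22620 are higher on zone 3 replicate 1 than on replicate 2, as are those beside AT2G44300 other than AT2G32190, and the widest gaps are those of AT4G13580 and AT4G33420.

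Further loci of the LTPG type were listed beside the members. Of 19 such loci, 9 had a single-gene probe set and 3 passed the filter. Of these 3, 1 was called higher in each of zones 2, 3 and 4 than in zone 1 and 0 lower. Of all probe sets in the model, 7.28%, 18.0% and 10.5% were called higher in these zones, and 4.78%, 20.0% and 3.88% lower. The median log2 differences of the 3 loci from zone 1 were 1.55, 0.36 and 0.36, against -0.00, -0.01 and 0.00 over all probe sets tested.

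The called gene was AT1G62790, with signals of 470.5 and 562 in zone 1, 1251 and 2594 in zone 2, 3147 and 2889 in zone 3, and 2189 and 1418 in zone 4. Zone 1 lay below the others, and the highest mean was in zone 3. Its log2 difference was 2.55 for zone 3 minus zone 1 (SE 0.38, adjusted p = 0.00081 by limma). For zone 2 minus zone 1 it was 1.81 (adjusted p = 0.017 by limma; 0.21 without zone 2 replicate 2 and 0.053 leaving out zone 1 replicate 1). For zone 4 minus zone 1 it was 1.78 (adjusted p = 0.014 by limma; 0.11 without zone 4 replicate 1).

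The other two that passed the filter, AT4G22640 and AT2G27130, had their highest means in zone 2, where no listed member did. AT4G22640 had signals of 106 and 93.5 in zone 1, 340.0 and 251 in zone 2, 81.4 and 165 in zone 3, and 76.2 and 215 in zone 4. Its zone 2 arrays lay above all others, and zones 3 and 4 enclosed zone 1. The log2 difference for zone 2 minus zone 1 was 1.55 (adjusted p = 0.075 by limma). AT2G27130 had zone means of 326 ± 11.9, 562 ± 83.8, 419 ± 0.372 and 309.8 ± 15.2 (SD, n = 2 each), and no pair of its zones passed. The 6 dim loci were AT1G73560, AT4G14815, AT4G12360, AT1G36150, AT5G09370 and AT3G58550, of which AT5G09370 exceeded the 40th percentile on 1 array and the others on none. The difference in profile between the members and these loci was not tested.

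Lipid transfer proteins without the anchor, together with the related hybrid proline-rich proteins of the cell wall, made a list of 34 loci, of which 11 had a single-gene probe set and 4 passed the filter. Of the 4, 1 was called higher in zone 2 (7.28% of probe sets), 3 in zone 3 (18.0%) and 2 in zone 4 (10.5%) than in zone 1. Called lower were 0 (4.78%, 20.0% and 3.88% of probe sets). The median log2 differences of the 4 were 2.17, 3.48 and 3.20, beside the medians near 0 given above for all probe sets.

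AT1G62510 had signals of 2.15 and 3.11 in zone 1, 5.62 and 135 in zone 2, 218 and 239 in zone 3, and 325 and 620.4 in zone 4. As in AT2G44300, zone 1 was dim and the 4 zones followed each other without overlap. Its log2 difference was 6.46 for zone 3 minus zone 1 (SE 1.15, adjusted p = 0.002 by limma) and 7.44 for zone 4 minus zone 1 (adjusted p = 0.0027). With an offset of 32 added to the signals these differences were 2.91 and 3.80.

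AT4G22460 had signals of 37.8 and 3.59 in zone 1, 25.3 and 69.8 in zone 2, 264 and 294 in zone 3, and 344 and 507 in zone 4. Zones 1 and 2 overlapped, and zones 3 and 4 lay above them. Its log2 difference was 4.58 for zone 3 minus zone 1 (adjusted p = 0.0033 by limma) and 5.17 for zone 4 minus zone 1 (adjusted p = 0.0055; 0.059 without zone 4 replicate 2). With the offset of 32 these differences were 2.64 and 3.18. The first was 2.88 without zone 1 replicate 2, the array with the signal of 3.59, and 6.28 with the other zone 1 array left out. AT2G45180 had its highest mean in zone 2, 1506 ± 324, against 279.9 ± 129.5 in zone 1 (SD, n = 2 each). That log2 difference was 2.49 (adjusted p = 0.012 by limma; 0.16 without zone 2 replicate 2), and zone 3 minus zone 1 gave 2.38 (adjusted p = 0.0035). AT1G62500 had zone means of 96.1 ± 18.3, 40.1 ± 3.31, 61 ± 41.5 and 180.3 ± 32 (SD, n = 2 each), and no pair of its zones passed.

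**Figure D4:**
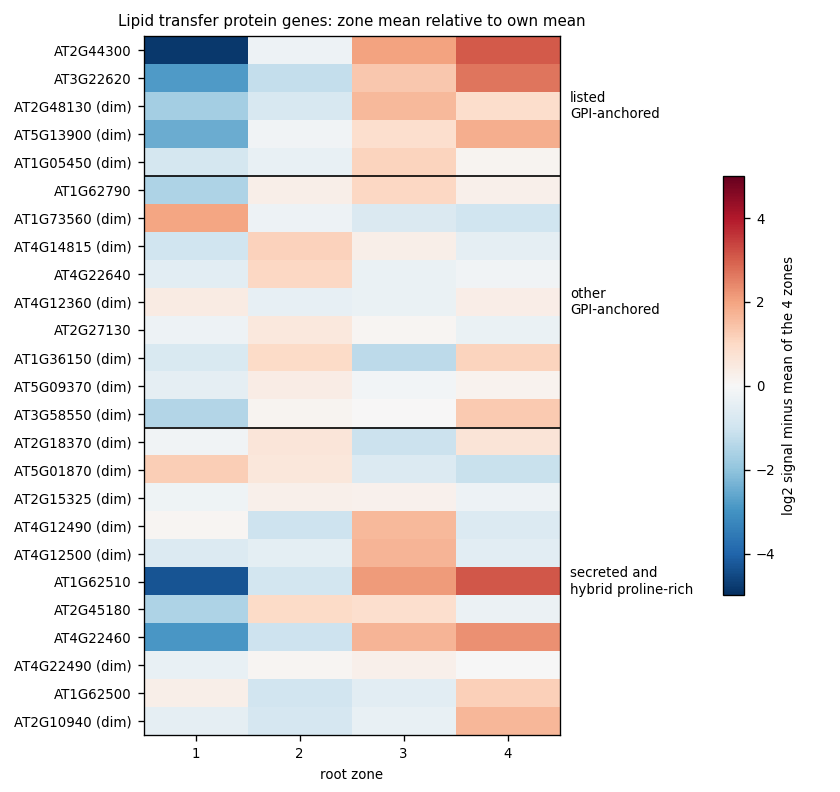
Mean log2 signal per root zone (columns) relative to the gene's mean over the 4 zones, for the 5 listed GPI-anchored genes, 9 further GPI-anchored genes and 11 secreted lipid transfer or hybrid proline-rich protein genes (rows, those below the filter marked dim). AT2G44300, AT3G22620, AT1G62510 and AT4G22460 are deepest blue in zone 1 and red in zones 3 and 4, and AT4G22640 and AT2G27130 are reddest in zone 2.

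A list made for GPI anchor synthesis was set beside the members as well. Of its 7 loci, 6 had a probe set and 5 passed the filter, and limma called 0 of the 5 in any of the 6 comparisons. Over all probe sets, the share called in a given direction ran from 0.00% to 20.0% across these comparisons, so nothing is read from this count. Among the 5 was AT2G27490, whose symbol ATCOAE does not name an anchor gene. Whether the other loci make the anchor was not checked, so the count is one of listed loci. A difference between these genes and the members was not tested. SETH2, known as a subunit of the enzyme that begins anchor synthesis, had zone means of 259 ± 51, 435 ± 57.3, 259 ± 106 and 312 ± 1.57 (SD, n = 2 each). COB (COBRA), a GPI-anchored protein that orients cell expansion in roots, was the 1 of 14 listed fasciclin-like and COBRA-type loci with a probe set. It had zone means of 519 ± 292, 713 ± 72.3, 993 ± 56.2 and 764 ± 68.1, and its log2 difference for zone 3 minus zone 1 was 1.06 (adjusted p = 0.052 by limma). Of 20 suberin loci and 19 cutin and wax loci, 0 were matched to a single-gene probe set, so these pathways are not analysed here.

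The root hair and endodermis markers with a probe set were higher in zones 3 and 4 than in zone 1. So were the members other than AT1G05450, whose zone 4 and zone 1 arrays overlapped. The photosynthesis gene and the summed signal of the dim lateral root genes, given below, were also higher there, so this order was not particular to root hair and endodermis. Of the lateral root genes, LBD16 alone overlapped between zone 1 (16.2 and 2.04) and zone 3 (27.1 and 3.71). For the root hair, 2 of 8 listed genes had a probe set, the expansins EXPA7 and EXPA18, and their summed signal ranged from 8.5 to 44.3 in zone 1, from 52.6 to 101 in zone 2, from 218 to 359.7 in zone 3, and from 317 to 1886 in zone 4. Zone 4 replicate 2 was the higher for both, as for the members. EXPA7 had log2 differences of 3.82 for zone 3 minus zone 1 (adjusted p = 0.0047 by limma) and 5.11 for zone 4 minus zone 1 (adjusted p = 0.0032; 0.06 without zone 4 replicate 2). EXPA18 had 3.90 (adjusted p = 0.014 by limma; 0.091 without zone 1 replicate 2 and 0.095 leaving out zone 3 replicate 1) and 5.49 (adjusted p = 0.0081; 0.11 without zone 4 replicate 2).

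For the endodermis, 1 of 11 listed genes had a probe set: GSO1, a receptor kinase needed for a closed Casparian strip. Its signals were 43.6 and 23.6 in zone 1, 38.5 and 120.1 in zone 2, 328 and 107 in zone 3, and 148 and 372 in zone 4. Replicate 1 was the higher in zone 3 and replicate 2 in zone 4, as in all members but AT1G05450, though by little in zone 3 for AT2G44300 and AT2G48130. Its log2 difference was 2.55 for zone 3 minus zone 1 (adjusted p = 0.017 by limma; 0.14 without zone 3 replicate 1 and 0.085 leaving out zone 1 replicate 2). For zone 4 minus zone 1 it was 2.87 (adjusted p = 0.024 by limma; 0.21 without zone 4 replicate 2 and 0.1 leaving out zone 1 replicate 2).

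Meristem markers had another order. The summed signal of the 4 with a probe set, of 10 listed, ranged from 1603 to 3421 in zone 1, from 865 to 921 in zone 2, from 184 to 478 in zone 3, and from 1445 to 1865 in zone 4. All 4 were called lower in zone 3 than in zone 1 by limma (20.0% of probe sets were, and 18.0% higher), AUR3 at an adjusted p of 0.022. With a robust prior AUR3 was not called (adjusted p = 0.057 by limma). The log2 difference of AUR3 was -3.24, and -1.22 without zone 3 replicate 1, so its size turned on that array. In zone 4 against zone 1, 0 of 4 were called (10.5% of probe sets were called higher and 3.88% lower). Zone 4 thus had high signals of meristem markers and of AT2G44300 and AT3G22620, while AT1G05450 was dim on both zone 4 arrays. GUT2, the 1 of 21 xylem genes with a probe set, ranged from 76.4 to 99 in zone 1, from 54.8 to 73.6 in zone 2, from 92.8 to 95.9 in zone 3, and from 89.7 to 138 in zone 4. LHCB4.1, the 1 of 16 photosynthesis genes, ranged from 29.8 to 73.8 in zone 1, from 41.1 to 53.1 in zone 2, from 93.1 to 138 in zone 3, and from 281 to 285 in zone 4. The summed signal of 2 of 4 lateral root genes, both dim, ranged from 3.39 to 17.8 in zone 1, from 17.6 to 24.4 in zone 2, from 32 to 40.1 in zone 3, and from 44.9 to 83.6 in zone 4. Of 4 root cap genes, 0 were matched to a single-gene probe set. No marker was at 0 on any array. The 3' to 5' signal ratio of the GAPDH control, a measure of RNA quality, lay between 13.2 and 64.3, with the lowest and the highest both in zone 1. The part of tissue makeup and RNA quality in the members' differences was not tested.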

How the data were processed

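Total RNA of 8 root sections was hybridised after 2-cycle labelling, per the labels' protocols. The deposited tables hold intensity on a linear scale, 1 MAS5 signal per probe set and array, per the submitters' processing notes; software version and chip definition: not given in the sources used here. Each array had a mean of 250.0 after trimming 2% from either end. Precision is limited by having 2 arrays a zone, and p-values measure only the spread between samples, which may be technical.

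Of 22810 probe sets, 64 controls were left out, 13513 had 1 gene and 503 had several. The rest had no gene in the probe annotation used, so a locus without a match may still have probes on the array. Loci were named through TAIR10.1's gene table. Log2 was taken with no offset, the lowest 40% by mean signal were dropped, and limma 3.58.1 (R 4.3.3; eBayes with trend; 4 residual and 6.5 prior degrees of freedom) estimated zone means from the 8 arrays together. Tests were two-sided. The code was tested on simulated data. Python 3.11.15 with pandas 2.3.3 and matplotlib 3.10.9 drew the plots.

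Members, lists and tests were chosen with earlier results of these data known. Named are all members, the 5 genes with the highest r for each of 2 members, and up to 4 genes per list with the widest range of zone means among those that passed the filter. Alternatives were quantile normalization, median centring, no filter or one at 60%, an added 32, a floor at each array's 40th percentile, other priors, a replicate block, no minimum fold, and leaving out each array. Samples were not treated as paired by replicate number. Differences between replicates correlated between zones with r from -0.192 to 0.037, which cannot show whether arrays of the same replicate number belonged together.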

Additional observations from a re-analysis of the deposited data

How the results depend on the processing

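Alternatives for the members were listed with the tests, and those for overlap counts and list genes were added after seeing the data. AT2G44300 and AT3G22620 were called higher than zone 1 in zones 3 and 4 under each of 18 alternatives, with log2 differences from 2.64 to 8.79. The replicate block changed no count of members called, and moved the count of all probe sets called for zone 2 against zone 1 to 1325, from 1645, and for zone 4 against zone 3 to 127, from 288. With no filter, 4 members in place of 2 were called for zone 3 against zone 1, as 5 were tested. For zone 4 against zone 2, 2 members in place of 0 were called with an offset of 32 and also with the floor at the 40th percentile. Over all 13647 probe sets the calls in this comparison were then 152 and 151, against 1. For zone 2 against zone 1 the floor left 0 in place of 1. Leaving out 1 array at a time gave counts of 0 to 1 for zone 2 against zone 1, for zone 3 against zone 2 and for zone 4 against zone 2. It gave AT3G22620 log2 differences of -0.16 to 2.87 for zone 4 minus zone 3; the lower of these was without zone 3 replicate 2, the array with the low signal. Median centring moved the median over all probe sets to -0.36 for zone 4 minus zone 1, and the count for zone 4 against zone 3 to 93, from 288. Members lowest in zone 1 numbered 4 under quantile normalization and under median centring, and 4 to 5 with 1 array left out. The arrays left of zone 4 exceeded those left of zone 3 for 3 members without zone 3 replicate 1 and for 4 without zone 4 replicate 1. With 1 array on a side overlap is rarer, and nothing is read from these counts.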
